A study of Mus musculus with 4 samples.

Results

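The ETS family genes examined here are 9 transcription factor genes of the mouse, Ehf, Elf3, Elf5, Etv3, Etv4, Etv5, Etv6, Ets1 and Ets2. They were chosen by name, with earlier results of these data known. Their data are the regions of the authors' deposited table that overlap each gene with 5 kb on either side, 217 of 484555 listed regions. DNA methylation was read by whole-genome bisulfite sequencing of sorted hair matrix keratinocytes, dividing cells of the lower hair follicle that form the hair, at postnatal day 4.5. The groups were WT, with 2 libraries, and mice that lack Tet2 and Tet3 through Krt14-Cre, a recombinase driven by the promoter of a basal keratin (Tet2/Tet3 double knockout, DKO), also with 2 libraries. The labels do not say whether the WT mice carried the Cre, or how many animals each library came from. Cells other than Krt14-expressing epithelium and its descendants would keep the Tet genes under this driver. The table gives 1 mean level per genotype and region, so differences could not be set against the spread between libraries, and no expression was measured, so the cell type was not checked against its markers. The table's header does not name its groups; the WT was taken as the one its title names first, and all directions depend on that.

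ETS factors bind DNA through a conserved domain that recognises the core GGAA, and binding of several members is known to be hindered when a CpG beside that core is methylated. Ehf, Elf3 and Elf5 form the epithelium-specific branch of the family and act in differentiation of epidermis and glands. Ets1 and Ets2 are activators phosphorylated by ERK, Etv4 and Etv5 are known targets of FGF signalling, and Etv3 and Etv6 are repressors. TET enzymes oxidise 5-methylcytosine on the way to its removal. Bisulfite conversion does not separate 5-methylcytosine from 5-hydroxymethylcytosine, so a level here includes both.

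RefSeq promoter sequences (GRCm38.p6, 250 bases before to 50 after a gene start) were found for 6 of the 9 genes in 8 entries. Ehf, Etv4 and Ets1 had no entry. The 5 sequences, 5′ to 3′ with each CpG in capitals, set dense gene starts against ones with fewer CpGs and give 1 stretch from inside a gained region. The first 2 lie in wide regions that stayed low in both genotypes, at Etv5 (chr16:22439521-22439820, minus strand, 37 CpGs) and at Ets2 (chr16:95702157-95702456, plus strand, 30 CpGs). The next 2 overlap no listed region, at Elf3 (chr1:135258423-135258722, minus strand, 12 CpGs) and at the first start of Elf5 (chr2:103411848-103412147, plus strand, 3 CpGs). The last is the start of LOC118027456, a long noncoding RNA within Etv6 (chr6:134243670-134243969, minus strand, 5 CpGs), and lies wholly in the region with the largest gain of the Etv6 window.
Etv5: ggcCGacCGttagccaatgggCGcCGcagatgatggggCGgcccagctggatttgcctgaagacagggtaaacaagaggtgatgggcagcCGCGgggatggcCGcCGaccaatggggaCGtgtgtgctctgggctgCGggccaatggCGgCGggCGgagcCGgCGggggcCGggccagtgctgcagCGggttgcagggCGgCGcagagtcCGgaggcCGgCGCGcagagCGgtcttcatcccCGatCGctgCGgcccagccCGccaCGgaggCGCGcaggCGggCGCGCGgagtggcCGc
Ets2: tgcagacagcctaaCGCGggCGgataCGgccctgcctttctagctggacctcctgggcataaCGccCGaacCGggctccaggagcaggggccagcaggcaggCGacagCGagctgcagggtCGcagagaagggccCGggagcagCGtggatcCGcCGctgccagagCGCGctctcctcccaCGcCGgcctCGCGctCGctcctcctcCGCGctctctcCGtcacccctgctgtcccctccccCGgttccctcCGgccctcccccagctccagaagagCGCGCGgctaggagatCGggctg
Elf3: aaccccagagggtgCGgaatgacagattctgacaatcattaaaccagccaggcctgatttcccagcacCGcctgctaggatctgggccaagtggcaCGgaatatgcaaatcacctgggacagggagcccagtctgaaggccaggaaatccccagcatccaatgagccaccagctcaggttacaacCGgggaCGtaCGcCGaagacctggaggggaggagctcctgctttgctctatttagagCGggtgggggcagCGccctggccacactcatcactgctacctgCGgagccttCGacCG
Elf5: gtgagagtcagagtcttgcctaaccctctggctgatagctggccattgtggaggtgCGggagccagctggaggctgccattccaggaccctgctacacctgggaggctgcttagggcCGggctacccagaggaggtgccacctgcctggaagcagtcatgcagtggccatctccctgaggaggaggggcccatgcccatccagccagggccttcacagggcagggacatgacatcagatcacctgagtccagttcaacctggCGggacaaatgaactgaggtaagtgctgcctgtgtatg
LOC118027456: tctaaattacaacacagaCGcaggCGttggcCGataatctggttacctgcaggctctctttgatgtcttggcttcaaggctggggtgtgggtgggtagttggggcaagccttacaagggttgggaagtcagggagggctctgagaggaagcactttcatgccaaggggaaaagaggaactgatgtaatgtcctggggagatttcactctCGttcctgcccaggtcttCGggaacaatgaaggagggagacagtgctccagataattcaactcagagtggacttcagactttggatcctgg

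Over all 32851 RefSeq promoters of this length the median was 7 CpGs, and 5.58% held as many as the Etv5 start. At least 30 CpGs, as at Ets2, were found in 11.7%, and at least 12, as at Elf3, in 39.6%. The motif CCGGAAGT, an ETS site that contains a CpG, was searched on both strands and was in none of the 8 member entries, against 3.89% of all promoters. The shorter GGAAGT, which is part of the longer motif, was on either strand in the Etv3 entry and in the entry of the downstream Etv5 start (2 matches each), against 23.8% of all promoters. The LOC118027456 sequence holds 1 such match. A match is a description of letters only.

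All 9 windows held regions that gained methylation in the DKO, and no member held a comparable loss. A gain here is a mean level at least 20 percentage points higher in the DKO, and 78 of the 217 listed regions passed it, which is 35.9%, against 22.9% of all listed regions. A gained region lay in 9 of 9 windows, against 64.4% of 21883 protein-coding gene windows, where windows were not matched for length. None of the 217 regions was 10 points lower in the DKO, a loss seen in 8.5% of gene windows and 2.54% of listed regions. With so low a share, its absence from 9 windows is no result about the members. Shares over all gene windows or all listed regions include the sex chromosomes, while the 9 members lie on autosomes. The 78 gained regions had a median of 45.4% in WT cells and 76.6% in DKO cells by the authors' means, close to the medians of all 111028 gained regions, 45.6% and 76.3%. Their median length was 468.5 bp, against 345 bp. A gain of at least 40 points was found in 8 of the 217 member regions (2.45% of all listed regions), of which 5 were at Etv3. In the authors' deposited table each of the 78 differences was at least 5 times the spread estimate given for its region, which ran from 3.30 to 5.35 points. The cut of 20 points sets most of that ratio, so it adds no support to the gains. The spread estimate is the authors' own and is not a replicate error measured here.

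**Figure D1:**
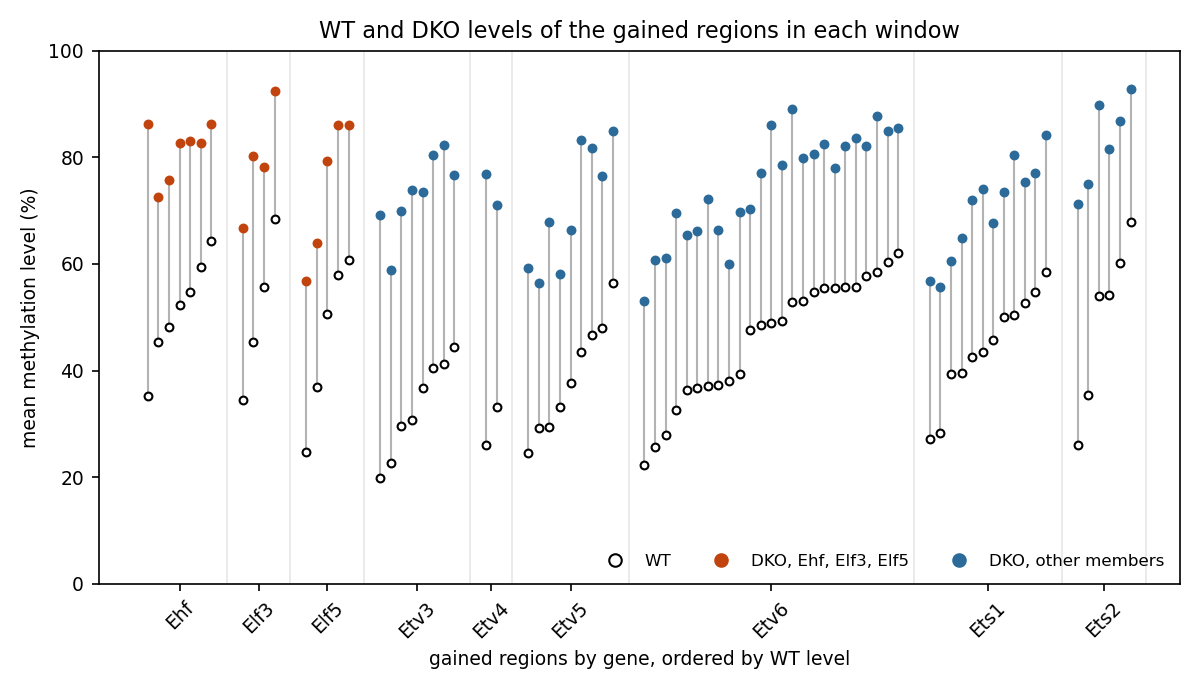
Mean methylation level in percent (vertical axis) of each of the 78 gained regions in the WT (open points) and the DKO (filled points), joined by a line and ordered by WT level within each gene (horizontal axis). WT levels ran from 19.8% to 68.4%, and 69 of the 78 regions reached at least 60% in the DKO.

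The share of each window inside gained regions differed widely between members. Coverage was highest at Etv3 with 20.1% of its window, followed by Elf3 with 13.4%, Ets2 with 11.6% and Etv5 with 10.2%. It was 5.60% at Etv4, 5.52% at Ehf, 5.47% at Etv6, 3.91% at Ets1 and 2.19% at Elf5. Over all protein-coding genes the mean was 2.67% and the median 1.29%, so 8 of the 9 lay above the mean and Elf5 lay below it. As a description, 0.334% of genes had a coverage at or above that of Etv3, 1.83% that of Elf3, 2.89% that of Ets2 and 4.46% that of Etv5. For Elf5 the share was 40.85%. Etv3 was highest and Etv5 the fourth in each of the 6 settings tried, while other places in the order changed. Ets2 passed Elf3 at a minimum difference of 30 points and with 10 kb on either side. The lowest was Ets1 (0.493%) at 30 points and Etv4 (0%) for gene bodies alone. Windows differ in length, from 14899 bp at Elf3 to 244459 bp at Etv6.

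**Figure D2:**
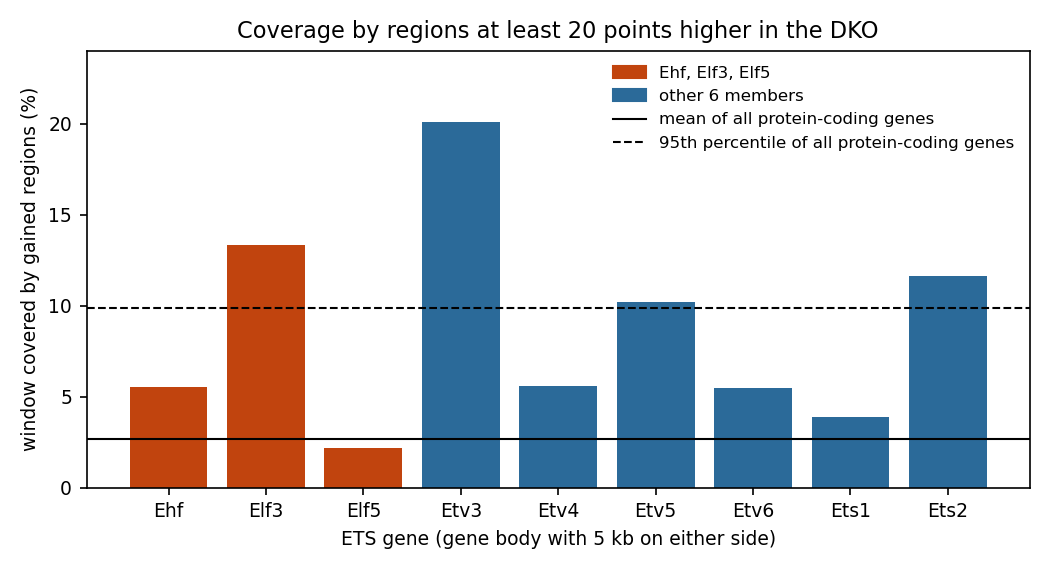
Percent of each window (gene with 5 kb on either side) inside gained regions, those 20 points or more above the WT (vertical axis, bars from 0) for the 9 genes, with the mean (solid line, 2.67%) and the 95th percentile (dashed line, 9.86%) of 21883 protein-coding genes. Etv3, Elf3, Ets2 and Etv5 lie above the dashed line, and Elf5 lies below the mean.

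The epithelium-specific branch and the other members overlapped in the amount of gain, from 2.19% to 13.4% and from 3.91% to 20.1% of a window. Mean coverage was 7.03% over Ehf, Elf3 and Elf5 (SD 5.74 over 3 genes) and 9.47% over the other members (SD 5.99 over 6 genes). The difference was -2.45 points, epithelial minus other, and no test was made, since genes are not replicates. It turned to 0.196 points for gene bodies alone and to 13.0 points as a percent of listed cytosine positions. By positions, Elf3 stood at 91.8% with 5 listed regions, Ehf at 32.6% and Elf5 at 14.7%, and the others ran from 22.2% to 39.4%. The difference in mean coverage was -3.95 points at a minimum difference of 30 points, -0.330 without Etv3 and -5.62 without Elf3, so its size and sign rest on these choices. Among listed regions, 16 of 51 gained in the epithelial windows (31.4%) and 62 of 166 in the others (37.3%). Pooled over genes, gained regions of the epithelial members started from a higher WT level, with a median of 51.4% against 43.0%. They also ended higher, at 81.4% against 74.5%. Of the 62 other regions, 25 came from Etv6, and regions are not replicates. Gene by gene, Ets2 lay above all 3 epithelial members, with medians of 54.0% and 84.25%, and the remaining genes lay below them. The median difference of the epithelial regions was 27.8 points, against 29.2 points for the others. They were shorter, with a median of 307 bp against 592 bp.

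Elf3, an epithelial activator also induced in inflamed tissue, is the shortest of the 9 genes (chromosome 1, 135253574 to 135258472), and 4 of its 5 listed regions gained. The region at 135253684 to 135254517, at the gene end, was 45.4% in WT cells and 80.25% in DKO cells by the authors' means, the largest gain of the window with 34.9 points. A region upstream, at 135261161 to 135261458 and 2689 bp from the start, went from 34.5% to 66.7%. Inside the gene, the region at 135255502 to 135255976 went from 55.7% to 78.3%. Downstream of the gene, 1721 bp from its end, a region at 135251470 to 135251853 went from 68.4% to 92.4%. The 5th region, 4434 bp downstream, was at 28.0% and 25.7%. Gained regions thus lay on both sides of the Elf3 start, at 2496 bp inside and 2689 bp outside, and the start itself overlapped no listed region.

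Ehf, a factor of glandular and epidermal epithelium (chromosome 2, 103263431 to 103303275), held the member region with the most extreme statistic. This region of 316 bp and 18 positions inside the gene, at 103271604 to 103271919, went from 35.2% in WT cells to 86.3% in DKO cells. In the authors' deposited table its extreme statistic was -10.79 with a spread estimate of 3.44 points, and 0.385% of all gained regions had a statistic as extreme. A difference as large was found in 1.13% of them. The region ranked first among the 78 gained member regions on both measures, so these low shares are no result about Ehf. The region at 103275447 to 103275834 went from 54.8% to 83.0%. Farther on, those at 103283543 to 103284076 (48.2% and 75.8%) and 103286683 to 103287773 (45.3% and 72.5%) rose by similar amounts. All 7 gained regions of Ehf were inside the gene, while the 4 listed regions in its flanks did not gain, and the largest loss, at 103291462 to 103291690, was -2.81 points (74.7% and 71.9%).

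Elf5, known for its role in mammary alveolar cells and trophoblast (chromosome 2, 103412098 to 103450989), had the lowest coverage at 20 points, with a window about as long as that of Ehf (48892 and 49845 bp). At a minimum difference of 30 points its coverage of 1.83% lay above that of Ehf, 1.14%. It held 5 gained regions among 23 listed. The widest, at 103434839 to 103435734, lay 22741 bp inside the gene and went from 24.8% in WT cells to 56.8% in DKO cells. The other 4 were short, from 2 to 94 bp. Of these, the region at 103446654 to 103446747 went from 50.6% to 79.3%, and that at 103450018 to 103450070, at the gene end, from 60.7% to 86.15%. The remaining pair, at 103436183 to 103436184 and 103447171 to 103447197, went from 58.0% to 86.0% and from 36.9% to 63.9%. No gained region of Elf5 lay nearer to its first start than 22741 bp, and the listed region nearest to that start, at 103421917 to 103422533, was 69.7% and 66.7%. The largest loss was -4.20 points, at a single position (95.4% and 91.2%).

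**Figure D3:**
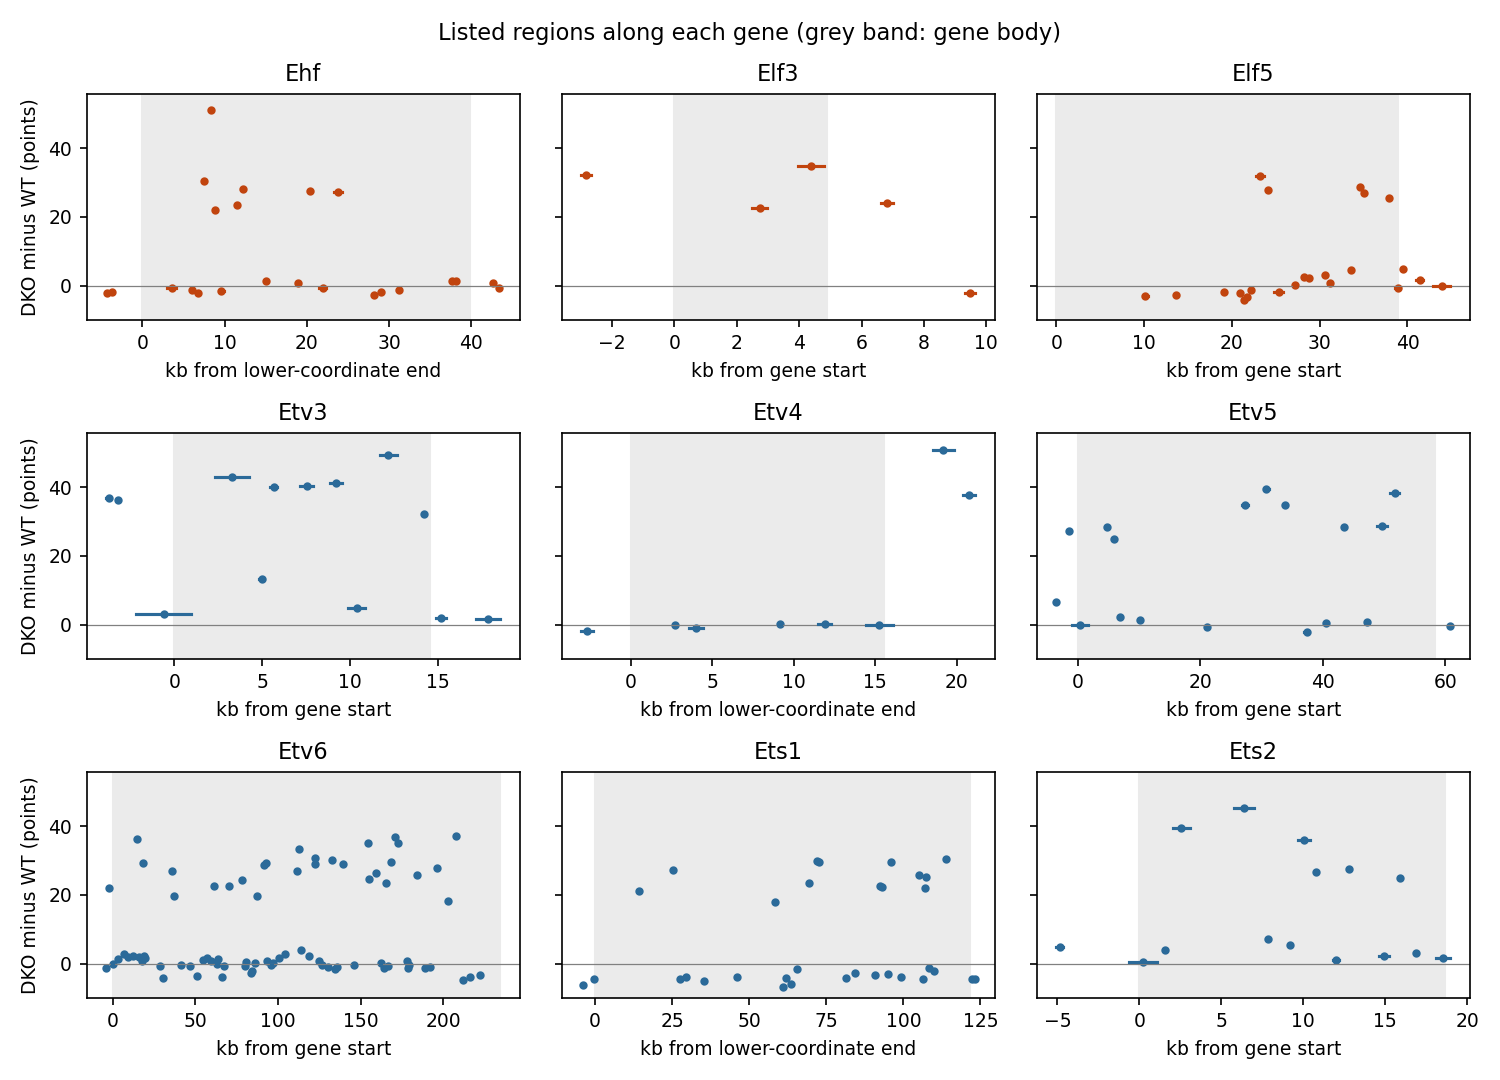
Difference in mean level, DKO minus WT in percentage points (vertical axis), of every listed region against its distance in kb from the gene start, or from the lower-coordinate end for Ehf, Etv4 and Ets1 (horizontal axis). Bars give region length, points its centre and grey bands the gene body. Gains lie inside the gene at 8 of the 9 genes, and both gains of Etv4 lie beyond its higher-coordinate end.

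Etv3, a repressor linked to the arrest of proliferation in differentiating macrophages, showed the densest gains (chromosome 3, 87525577 to 87540158). Each of its 13 listed regions had the higher mean in the DKO, and 8 gained, each by at least 32.3 points. Some of the other differences were below their spread estimate, the smallest being 1.61 points with an estimate of 3.44. The share of higher regions over all listed regions is not given here, so this count is no result about Etv3. A gain of at least 30 points was found in 31 of the 217 member regions (9.63% of all listed regions), so Etv3 held 8 of these 31. The largest gain, at 87537304 to 87538240 inside the gene, went from 19.8% in WT cells to 69.2% in DKO cells. The region of 1890 bp and 93 positions at 87527921 to 87529810, 2344 bp from the start, went from 30.8% to 73.8%. Between these, regions at 87531029 to 87531453 (40.4% and 80.5%), 87532741 to 87533473 (29.5% and 69.9%) and 87534443 to 87535127 (41.2% and 82.4%) rose by 40.07 to 41.2 points. The gained regions covered 32.0% of the gene body. Among them lay a region at 87535489 to 87536449 that was already at 90.2% in WT cells and 95.1% in DKO cells, and one at 87530427 to 87530672 that went from 10.6% to 23.9%. Across the start, a region of 3156 bp stayed at 16.9% and 19.9%.

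Etv4 and Etv5, which belong to the same branch as factors downstream of FGF signalling, differed in where their gains lay. At Etv4 (chromosome 11, 101769747 to 101785310), both gained regions lay outside the gene. The nearer one, 2997 bp beyond the higher-coordinate end at 101788307 to 101789586, went from 26.0% in WT cells to 76.8% in DKO cells, a difference that 1.23% of all gained regions reach. This region was among the largest gains of the 78 gained member regions, so its low share is no result about Etv4. It overlaps the long noncoding RNA gene Gm39392. The other, at 101790159 to 101790891, went from 33.2% to 71.0% and runs past the window's edge. From 5 to 10 kb away, Etv4 had 2 more gained regions. Inside Etv4, 0 of 5 listed regions gained, counting 1 of 1639 bp across the higher-coordinate end, at 101784188 to 101785826, which was 3.10% in WT cells and 3.08% in DKO cells. The largest loss, at 101766729 to 101767417, was -1.96 points (91.1% and 89.2%).

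At Etv5 (chromosome 16, 22381313 to 22439570), 8 of 9 gained regions lay inside the gene. The largest gain, at 22408411 to 22409211, went from 43.6% in WT cells to 83.2% in DKO cells. Toward the gene end, neighbouring regions at 22387096 to 22388618 (29.4% and 67.8%) and 22389115 to 22390693 (37.6% and 66.3%) were the longest, at 1523 and 1579 bp. Regions at 22405474 to 22406153 (46.7% and 81.7%) and 22411871 to 22412815 (24.5% and 59.3%) lay in the middle of the gene. Around the start, whose sequence is printed above, a region of 2637 bp and 321 positions (22437976 to 22440612) stayed at 3.35% and 3.32%. The nearest gained region began 1446 bp upstream of the start. The largest loss, at 22401864 to 22402592, was -2.05 points (92.2% and 90.15%).

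Etv6, a repressor needed in blood stem cells (chromosome 6, 134035700 to 134270158), held the most gained regions, 25 of 79 listed, spread over the longest gene of the set. Per 10 kb of window this was 1.02 regions, the same as at Elf5 and fewer than the 3.25 at Etv3. The largest gain, at 134242624 to 134244430, went from 48.9% in WT cells to 86.1% in DKO cells over 1807 bp and contains the LOC118027456 start shown above. Gains of 35 to 37 points also lay at 134050158 to 134050822 (52.8% and 89.1%), 134190012 to 134190617 (37.1% and 72.2%), 134206206 to 134207065 (32.5% and 69.5%) and 134208071 to 134208694 (25.6% and 60.7%). The start, at 134035374 to 134036194, stayed at 2.82% and 2.60%, in a stretch that Etv6 shares with the start of the gene Gm46977. The largest loss, at 134247751 to 134247883, was -4.69 points (88.6% and 83.9%).

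Ets1, expressed in lymphocytes and endothelium and able to block keratinocyte differentiation when overexpressed, had many small gains (chromosome 9, 32636241 to 32757820). Of its 33 listed regions 12 gained, by 21.2 to 30.6 points, and 20 were lower in the DKO, by at most 6.72 points. The share of lower regions over all listed regions is not given here. The largest gain, at 32749675 to 32750323, went from 43.4% in WT cells to 74.0% in DKO cells. Others lay at 32731874 to 32732558 (27.1% and 56.75%), 32708440 to 32709022 (42.5% and 72.0%), 32661373 to 32661951 (28.4% and 55.7%) and 32740939 to 32741539 (58.5% and 84.3%). Only 1 of the 12 reached 30 points. The largest loss of all 9 windows lay inside Ets1, at 32696859 to 32697775, with 50.3% and 43.6%. Its difference of -6.72 points compares with a spread estimate of 5.17 points in the authors' deposited table.

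Ets2, a close relative of Ets1 (chromosome 16, 95702407 to 95721049), had its gains concentrated past a low start. Each of the 15 regions listed for it had the higher mean in the DKO, and 6 gained, all inside the gene. Some of the other differences were below their spread estimate, the smallest being 0.392 points with an estimate of 3.58. As at Etv3, the count of higher regions is no result about the gene. The region at 95708163 to 95709395 went from 25.9% in WT cells to 71.2% in DKO cells, and that at 95704451 to 95705471, 2044 bp from the start, from 35.5% to 74.97%. Next to them, the region at 95712102 to 95712847 went from 53.9% to 89.9%, and 3 shorter ones reached 86.9%, 81.6% and 92.8% from 60.1%, 54.1% and 67.8%. Across the start (95701798 to 95703478, 253 positions) the level was 2.35% and 2.75%. From 5 to 10 kb outside Ets2 lay 3 more gained regions, with differences up to 39.7 points.

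Starts with dense CpGs stayed low where they were listed, with Etv3 somewhat higher. The regions across the starts of Etv5, Etv6 and Ets2 and across the higher-coordinate end of Etv4 were between 2.35% and 3.35% in the WT and between 2.60% and 3.32% in the DKO. They held 1 CpG per 13.3 to 17.5 bp, counting 2 positions as 1 CpG. None of the 4 regions at a gene start gained, while 67 of the 180 listed inside a gene did. The shares over all listed regions at such places are not given here. All 4 were at 16.9% or lower in the WT. Of member regions below 20%, 1 of 12 gained, against 28.5% of all listed regions, so 0 of 4 is no result about starts. The nearest gained regions to the starts of Elf3, Etv3, Etv5, Etv6 and Ets2 were 1446 to 2496 bp away. No level is known for a start that overlaps no listed region, as at Elf3 and Elf5.

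Most gains of the members were in regions of intermediate WT level. Among regions with a WT level of 20% to 40%, 31 of 33 gained (93.9%, against 85.0% of all listed regions of that level), and among those of 40% to 60%, 39 of 46 (84.8%, against 76.0%). Of regions at 60% to 80%, 7 of 41 gained (17.1%, against 9.34%). Below 20%, 1 of 12 did (8.33%, against 28.5%), the Etv3 region at 19.8%. The 85 regions at 80% or more could not rise by 20 points. The shares hold for listed regions only, and the rule by which regions were listed is not given. No member region had a statistic between -4.025 and 1.541, so regions with a negative statistic were listed only at more extreme values. The shares therefore depend on that listing as well as on the WT level. All 78 gained regions had a negative statistic in the authors' deposited table. Of the 139 others, 135 had a positive one, and 134 differed by less than 10 points. A positive statistic did not always go with a lower mean in the DKO. The Etv3 region at 87530427 to 87530672 had 2.27 and was 13.3 points higher there. The median difference of the 139 was -0.350 points.

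**Figure D4:**
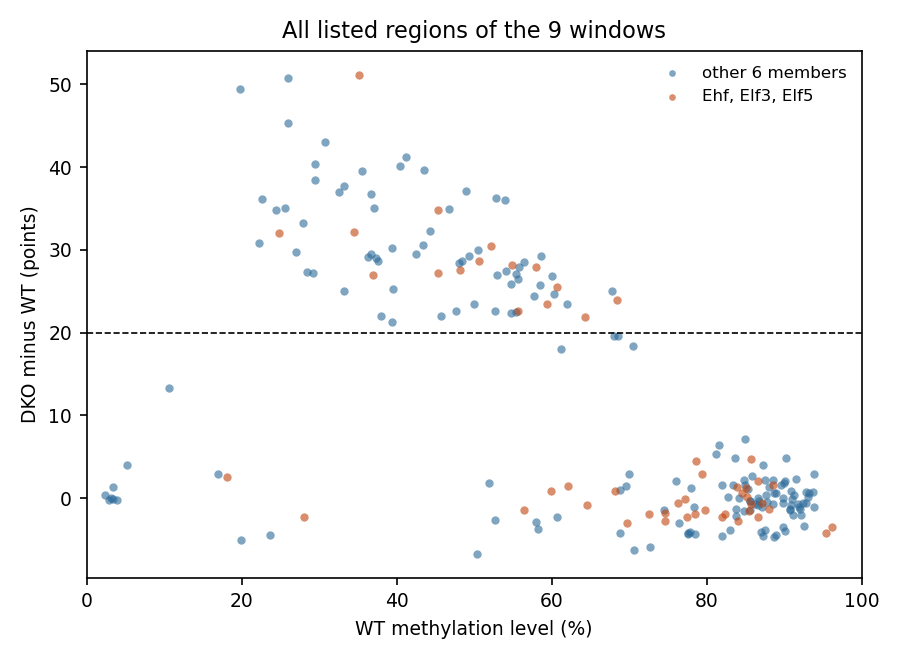
Difference in mean level, DKO minus WT in percentage points (vertical axis), against the WT level in percent (horizontal axis) for the 217 listed regions, with 20 points as a dashed line and the epithelial members in red. In both sets of genes most gains lie between 20% and 60% in the WT, with 3 epithelial and 4 other gains between 60% and 80%. Differences are near 0 at 80% or more. Below 20% most are small, but the epithelial set has only 1 region there.

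Other genes of the family, counted the same way, had lower coverage. Of 17 further ETS genes, 14 held a gained region (64.4% of all gene windows did) and 9 lay above the mean of all genes, with a median coverage of 2.75%, against 5.60% for the 9 members and 1.29% for all genes. The highest were Spib, a factor of B cells, at 9.00%, Elk3 at 8.69%, Elk4 at 5.94% and Erf at 5.60%. Elk3, Elk4 and Erf are known to respond to ERK, and so is Elk1, which held no gained region. Elk1 lies on the X chromosome, while all 9 members lie on autosomes, and the sex of the animals is not given here. Fli1 and Elk1 were at 0%, with 18 and 3 listed regions, and Fev had no listed region, so nothing is known of its level. No test of this difference was made, since the members were not drawn at random.

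Regulators and readouts of the ERK signalling upstream of several members also held gains. Of 9 such genes 8 held a gained region, against 64.4% of all gene windows, and 7 lay above the mean of all genes. Their median coverage was 5.95%, against 1.29% for all genes. This list was chosen with earlier results of these data known, and windows were not matched for length. The comparison with all genes is therefore a description only. The highest were Spry1 at 21.6% and Spry2 at 16.3%, which are feedback inhibitors of receptor tyrosine kinase signalling, and Trib1, a pseudokinase, at 12.6%. Dusp4, an ERK phosphatase, held no gained region. At Spry1 the widest difference was 34.9% in WT cells and 79.1% in DKO cells by the authors' means.

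For markers of cell types that a sort could hold, median coverage was 11.8% over 9 keratinocyte genes (highest Krt17, 29.6%), 6.28% over 5 melanocyte genes (Dct, 9.99%), 3.595% over 6 fibroblast genes (Lum, 6.71%), 2.28% over 6 immune genes (Csf1r, 4.51%) and 1.59% over 5 endothelial genes (Pecam1, 11.0%). Gained regions lay in 9 of 9, 4 of 5, 6 of 6, 6 of 6 and 4 of 5 of these genes, in the same order, against 64.4% of all gene windows, whose median coverage was 1.29%. These marker lists were also chosen with earlier results of these data known, and windows were not matched for length. The part of other cells in the values of the members was not tested.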

How the data were processed

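Whole-genome bisulfite libraries from sorted hair matrix keratinocytes, 2 WT and 2 Tet2/Tet3 DKO, were grouped by genotype and title. The submitters' processing notes name Trim Galore, Bismark and the build GRCm38 (mm10). For the region caller and its bounds, nothing is given in the sources used here. The authors' deposited table gives each region 2 group mean levels as fractions (shown here as percentages), the count of cytosine positions (per the file headers, strands mostly apart), a statistic used as a score, and a spread estimate. It holds no values per library, so the planned model on reads was not run, the depth and its precision are unknown, and no test or interval is given.

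Regions overlapping a gene with 5 kb on either side were taken by gene positions in a RefSeq table of GRCm38.p6, and a gain is a level at least 20 percentage points higher in the DKO. Coverage is the percent of the window inside gained regions, computed for 21883 protein-coding genes. Overlap code was tested on simulated data. All 2575 region starts that fall in RefSeq promoters lay on a C or a G. In each window the text names all regions with a 20-point difference where there were at most 6, otherwise the 5 widest differences among regions of at least 10 positions, plus the region nearest the start and the largest loss. From the lists it names the 4 other ETS genes with the highest coverage and those at 0, the 3 highest ERK feedback genes, and the highest marker of each cell type. Regions named beyond that rule were chosen after their values were seen. The members and lists were chosen with earlier results of these data known. Alternatives changed the minimum difference, window, positions, weighting and genes included. Python 3.11.15, numpy 2.4.6, pandas 2.3.3 and matplotlib 3.10.9 were used.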

Additional observations from a re-analysis of the deposited data

How the results depend on the processing

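Over all 9 windows, the mean coverage, the summed number of gained regions and the number of windows with a gain stayed within 1.5 times of the reported value under each setting tried, except that a minimum difference of 30 points left 31 of 78 gained regions. For gene bodies alone, 8 of the 9 held a gain, with Etv4 the exception. The difference in mean coverage between the epithelial members and the others (-2.45 points) was not stable. It was -3.95 at a minimum of 30 points and -1.60 when weighted by length. It turned to 0.196 for gene bodies alone and to 13.0 as a percent of listed cytosine positions, where Elf3 stood at 91.8%. In alternatives added after the data were seen it was -0.330 without Etv3 and -5.62 without Elf3. The mean level of Etv4 over listed regions, 14.6 points higher in the DKO, turned to -0.228 for the gene body alone, since both of its gained regions lie outside the gene. At 30 points coverage moved by over 1.5 times at Ets1 (to 0.493%), Ehf (1.14%), Etv6 (2.40%), Etv5 (5.79%) and Elf3 (7.60%). For gene bodies it did so at Etv3 (32.0%), Elf3 (26.7%), Ets2 (17.9%) and Etv4 (0%).

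No paired analysis was possible because the table holds 1 mean per genotype and no result comes from a test. Leaving out a library was not possible for the same reason. The depth behind each level is unknown.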

Other observations

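Several ETS genes lie beside each other, and the stretches between them, chosen after the member values were seen, differed in their gained regions. The stretch between the windows of Erg and Ets2 on chromosome 16 (95591601 to 95697406) held no other protein-coding gene. In it, 21 of 47 listed regions gained at least 20 points, against 22.9% of all listed regions. The 21 covered 8.75% of the stretch. The widest gain there, at 95672457 to 95673036, went from 40.65% in WT cells to 90.3% in DKO cells by the authors' means. Erg itself, an endothelial ETS factor, had 8 gained regions that covered 0.731% of its window, against 11.6% for Ets2.

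Between Ehf and Elf5 on chromosome 2 (103308276 to 103407097), 3 of 19 listed regions gained, against the same 22.9%, and covered 3.26%. The widest went from 28.6% to 63.5%, at 103375219 to 103376759. Between Fli1 and Ets1 on chromosome 9 (32548433 to 32631240), 0 of 9 listed regions gained 20 points, and the highest difference was 19.2 points in a region of 4 positions. Fli1, a factor of blood and endothelial cells, held no gained region among its 18 listed regions. No difference between these stretches, or from the 22.9% of all listed regions, was tested. Coverage of other stretches between genes is not given here.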
